A study of Mus musculus with 2 samples.

Results

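The SLC25 family holds the carriers that move metabolites across the inner mitochondrial membrane, and its transcripts were compared in kidney RNA of mice fed adenine with or without HMPA. The family was taken as the genes whose name on the array starts with Slc25a, leaving out Slc25a20, which gave 45 of the 26567 gene names on the array. Male CD-1 mice, 7 weeks old at the start per the labels, ate an AIN-93G diet with 0.2% adenine by weight (2 g per kg) for 1 week. In the adenine group this diet was given alone, and in the HMPA group 2% by weight of HMPA was added, a phenolic compound whose full name is 3-(4-hydroxy-3-methoxyphenyl) propionic acid. The titles speak of 5 mice at 12 weeks of age, which differs from the protocol, and pooling of RNA is not stated. Dietary adenine forms crystals in kidney tubules, and the labels call these mice a chronic kidney disease model. Both groups received adenine and no kidney without adenine was on the arrays, so the ratios do not show which carriers adenine changed.

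Each of 2 Agilent dual-colour arrays held RNA of both groups, with the dyes swapped between them, and this was treated as 1 RNA sample per condition measured by 2 arrays. There is no replicate of animals, so no p-value is given. A carrier was called higher or lower by size: its ratio had to reach 2-fold as a mean, and 1.5-fold on array 1 and array 2 alike in that direction. Ratios are log2 of HMPA over adenine alone, and ± gives how far each array lay from the mean of both. Between 57.9% and 67.9% of gene spots were well above background in the 4 channels (2 dyes on 2 arrays), none was saturated, and the number of arrays limits the precision.

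SLC25 carriers share a fold of repeated membrane-spanning modules, and most exchange a solute of the matrix for a solute of the cytosol. Through them, ADP enters for ATP made by respiration, aspartate and malate carry reducing equivalents, and cofactors reach enzymes of the matrix. Proximal tubule cells are rich in mitochondria, and transport of solutes from the filtrate depends on their respiration.

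Of 77 probes for the 45 carriers, each 60 bases long, 58 passed the filter on dim probes, and 38 carriers had at least 1 such probe. These 38 were well above background in all 4 channels. The other 7 were not measured: Slc25a2 and Slc25a18, carriers of basic amino acids and of glutamate, Slc25a31, an ADP/ATP carrier known from testis, Slc25a41 and Slc25a54, of the ATP-Mg/phosphate branch, and Slc25a34 and Slc25a47. For none of these 7 did a probe stand well above background on both arrays for either condition.

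Because carriers resemble each other, the probes were compared in all 2926 pairs of this family, over overlaps of at least 20 bases. Only 2 pairs matched at 70% or more of the overlapping bases. In the shorter of these, a Slc25a35 and a Slc25a17 probe matched at 14 of 20 bases. The other pair, shown because these probes read the ADP/ATP carriers Slc25a5 and Slc25a4, matched at 45 of 54 overlapping bases. Capitals mark the bases that differ within the overlap. The Slc25a5 probe lies at chrX:34338475-34338534 on the + strand and the Slc25a4 probe at chr8:47292828-47292887 on the − strand (mm9, the build of the array files).
Slc25a5 probe: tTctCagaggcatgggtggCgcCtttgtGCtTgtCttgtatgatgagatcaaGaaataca
Slc25a4 probe: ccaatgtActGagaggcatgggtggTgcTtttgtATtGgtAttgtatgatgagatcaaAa
Binding of either transcript to the other probe was not tested. The carriers are otherwise separated by sequence at this threshold, which covers the carriers of this family and not other genes.

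The HMPA sample had higher signals for most measured carriers. Slc25a16, Slc25a10, Slc25a13, Slc25a25, Slc25a33, Slc25a15 and Slc25a21 met the rule as higher, which is 7 of 38 (18.4%), against 6.64% of all 16698 measured genes. Slc25a24 alone met it as lower, against 7.72% of all genes. With the rule set at a mean of 1.5-fold and the same direction on both arrays, 20 carriers were higher and 2 lower, against 13.9% and 16.6% of all genes. The ratio was above 0 on both arrays for 32 carriers, below 0 on both for 4, and of opposite sign for Slc25a4 and Slc25a28. Among all genes, 35.9% were above 0 on both arrays and 42.9% below. The counts moved with the scaling and the starting values. With median centring in place of loess, 3 carriers were higher (7.89%, against 4.49% of all genes), namely Slc25a10, Slc25a13 and Slc25a16, and Slc25a24 and Slc25a35 were lower. From Feature Extraction's own ratios, 14 were higher (36.8%, against 12.235%), the 7 above among them, and Slc25a24 and Slc25a43 were lower.

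The median log2 ratio was 0.62 over the carriers and −0.04 over all measured genes. It was 0.49 on array 1 and 0.67 on array 2, and 26 of the 38 carriers had the higher ratio on array 2. Carriers lay a median of 0.11 from their mean on each array, as did all genes. Signals of the conditions did not overlap for 36 carriers, with Slc25a4 and Slc25a28 as exceptions, but this also held for 75.4% of all genes. The zero of these ratios depends on the scaling. Median centring moved the median of all genes to −0.22 and that of the carriers to 0.35, and higher genes then made up 27.5% in place of 46.2% of all genes that met the rule. Relative to all genes, the carriers' median was higher by 0.66 with loess and by 0.57 with median centring.

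**Figure D1:**
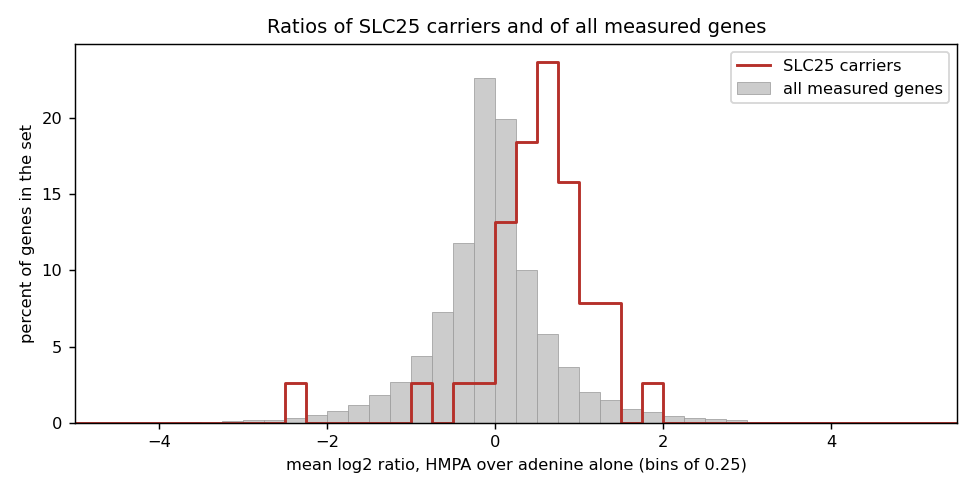
Share of SLC25 carriers (red line, 38 carriers) and of all measured genes (grey bars, 16698 genes) in bins of the mean log2 ratio of HMPA over adenine alone. The carriers lie to the right of all genes, with medians of 0.62 and −0.04, and Slc25a24 stands apart at −2.25.

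**Figure D2:**
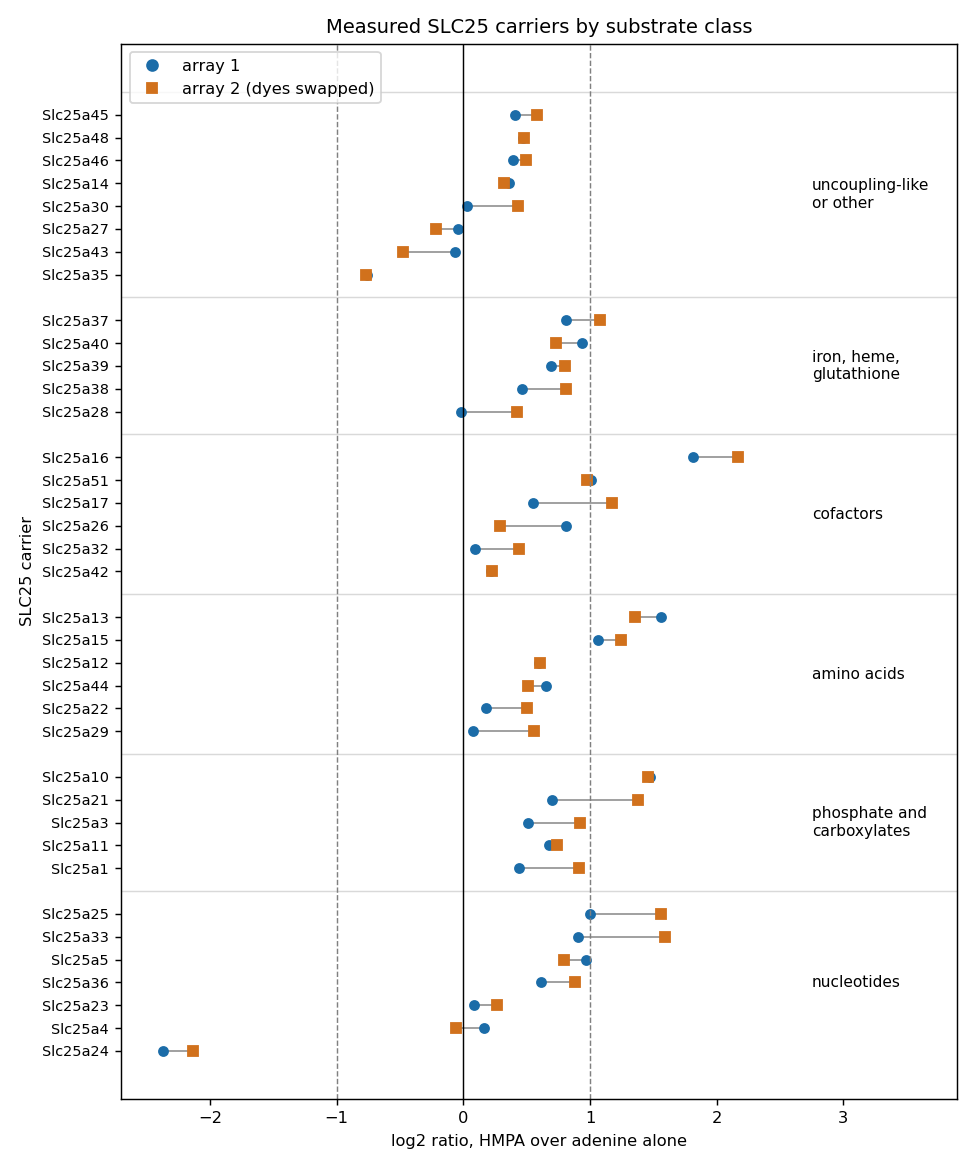
Log2 ratio of HMPA over adenine alone for 37 of the 38 measured carriers, by class of solute or as uncoupling-like or other. A circle marks array 1 and a square array 2. Dashed lines mark a 2-fold difference. Slc25a16 lies farthest to the right and Slc25a24 farthest to the left, and the 8 uncoupling-like or other carriers lie between −0.77 and 0.58.

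The counts of each class below stand beside 6.64% higher and 7.72% lower among all measured genes. Carriers of nucleotides held the widest range. Of 7 measured, 2 met the rule as higher and 1 as lower, with a median of 0.75. Slc25a24 and Slc25a25 belong to the ATP-Mg/phosphate carriers, which are regulated by calcium and set the adenine nucleotide content of the matrix. The Slc25a24 signal in adenine alone was 2006 on array 1 and 1871 on array 2, and with HMPA it was 388 and 426. Both HMPA signals lay far below both adenine signals, and the ratio was −2.25 ± 0.12, or 4.77-fold lower. Its probe lies at chr3:108971266-108971325 (+ strand, mm9). For Slc25a25 the signal was 833 and 654 in adenine alone and 1670 and 1932 with HMPA. Here the HMPA signals were the higher ones without overlap, at 1.28 ± 0.28 or 2.43-fold, from a probe at chr2:32270275-32270334 (− strand, mm9). Slc25a25 met the rule in the reported setting but not with median centring (1.02, below 1.5-fold on array 1) or with the mean over its probes (0.97).

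The difference between Slc25a25 and Slc25a24 was 3.54 ± 0.16, the largest of 9 pairs of related carriers compared. Slc25a23, the third measured member of this branch, was dim, with signals of 69.7 and 65.5 in adenine alone and 73.9 and 78.6 with HMPA. Its ratio was 0.17 ± 0.09, and 0.71 by Feature Extraction. Slc25a24 lies within 44.7 kb of Slc25a54 by their probes, and the latter was not measured.

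Slc25a33 and Slc25a36 carry pyrimidine nucleotides, which serve the synthesis of mitochondrial RNA and DNA. The Slc25a33 signal was 431 and 333 in adenine alone and 805 and 1001 with HMPA, with no overlap. The ratio was 1.25 ± 0.34, or 2.37-fold higher, at chr4:149118713-149118772 (− strand, mm9). It was 0.93 with median centring and 0.90 on array 1 alone, short of 2-fold. Slc25a36 was at 0.75 ± 0.14 (1.22 by Feature Extraction's ratio, which met the rule), and the pair differed by 0.50 ± 0.21.

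Slc25a4 and Slc25a5 exchange ADP for ATP. The signal of Slc25a5 was 18642 and 22413 in adenine alone and 36434 and 38807 with HMPA, higher with HMPA without overlap but under 2-fold (0.88 ± 0.09). Its ratio by Feature Extraction was 1.19, which met the rule as higher. The signal of Slc25a4 was 15440 and 17128 in adenine alone and 17314 and 16461 with HMPA. These overlapped, and the ratio was 0.17 on array 1 and −0.06 on array 2. A second kept Slc25a4 probe had signals of 4856 and 4522.5 in adenine alone and 5174 and 5525 with HMPA. Those did not overlap, and its ratio was 0.09 on array 1 and 0.29 on array 2. Between the brightest probes of Slc25a5 and Slc25a4, printed above, the ratio differed by 0.83 ± 0.02. Slc25a43, 21.4 kb from Slc25a5 on the X chromosome by their probes, was dim and at −0.27 ± 0.20, and at −1.09 by Feature Extraction's ratio, which met the rule as lower.

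All 5 carriers of phosphate and carboxylates were measured and above 0 on both arrays, with a median of 0.72, and 2 met the rule as higher. Slc25a10 exchanges malate and succinate for phosphate. Its signal was 4190.5 and 4646 in adenine alone and 11639 and 12767 with HMPA. The HMPA signals were higher without overlap, and the arrays gave nearly the same ratio, 1.47 ± 0.0077 or 2.76-fold, at chr11:120360325-120360384 (+ strand, mm9). Slc25a21, a carrier of oxodicarboxylates from lysine breakdown, had signals of 74.3 and 66.6 in adenine alone and 120.5 and 173.5 with HMPA. Its HMPA signals were the higher ones, but the arrays differed, with ratios of 0.70 and 1.38. The mean of 1.04 ± 0.34 (2.06-fold, chr12:57819248-57819307, − strand, mm9) is just past the rule, and was 0.83 with median centring, 0.70 on array 1 alone and 2.42 by Feature Extraction's ratio. Slc25a3, which brings in phosphate for ATP synthesis, was at 0.72 ± 0.21, the oxoglutarate carrier Slc25a11 at 0.71 ± 0.03 and the citrate carrier Slc25a1 at 0.68 ± 0.24. Slc25a10 was above its relative Slc25a11 by 0.76 ± 0.04.

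The 6 measured amino acid carriers were above 0 on both arrays, with a median of 0.59, and 2 met the rule as higher. Slc25a13, or citrin, exports aspartate from mitochondria in exchange for glutamate, a step of the malate-aspartate shuttle. Its signal was 1124 and 1247 in adenine alone and 3319 and 3183 with HMPA. The HMPA signals were higher without overlap, at 1.46 ± 0.10 or 2.74-fold (chr6:5991482-5991541, − strand, mm9). Slc25a12, or aralar, which carries out the same exchange, was at 0.60 ± 0.0039, and the pair differed by 0.86 ± 0.11. Slc25a15, which exchanges ornithine and citrulline, had signals of 88.1 and 84.2 in adenine alone and 183.5 and 199.5 with HMPA. Again the HMPA signals were higher without overlap, at 1.15 ± 0.09 or 2.22-fold (chr8:23487872-23487931, − strand, mm9), and 0.88 with median centring but 2.12 by Feature Extraction's ratio. Slc25a44, a carrier of branched-chain amino acids, was at 0.58 ± 0.07, and the glutamate carrier Slc25a22 at 0.34 ± 0.16.

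The 7 cofactor carriers were all measured and above 0 on both arrays, and 1 met the rule as higher. Slc25a16 had the highest ratio of the family and has been linked to transport of coenzyme A. Its signal was 301 and 279 in adenine alone and 1054 and 1255 with HMPA. The HMPA signals stood well above, at 1.99 ± 0.18 or 3.97-fold (chr10:62408580-62408639, + strand, mm9). Slc25a42, a carrier of coenzyme A, was dim, with signals of 63.0 and 61.0 in adenine alone and 73.3 and 71.5 with HMPA. These did not overlap and gave 0.22, so the pair differed by 1.77 ± 0.18. Feature Extraction's ratio for Slc25a42 was 1.38, which met the rule as higher, beside 2.27 for Slc25a16. Slc25a51, which brings NAD+ into the matrix, had signals of 520.5 and 590 in adenine alone and 1045 and 1160 with HMPA. These did not overlap, but its ratio of 0.99 ± 0.02 fell just short of the rule. Feature Extraction's ratio for Slc25a51 was 1.15, which met the rule as higher. A second, dim probe of Slc25a51 was at 0.14 ± 0.045 (0.71 by Feature Extraction's ratio), and the mean over both probes was 0.56. Slc25a17, a peroxisomal member that carries coenzyme A and NAD+, was at 0.86 ± 0.31, with the higher ratio on array 2. Slc25a26, for S-adenosylmethionine, was at 0.55 ± 0.26, and Slc25a32, for folate and FAD, at 0.27 ± 0.17 (−0.05 with median centring).

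None of the 5 iron, heme and glutathione carriers met the rule in the reported setting, with a median of 0.74. The largest ratio was that of Slc25a37, or mitoferrin 1, which brings in iron and is abundant in erythroid cells. Its signal was 414 and 397 in adenine alone and 723 and 838 with HMPA, higher with HMPA without overlap at 0.94 ± 0.14. Slc25a37 met the rule as higher by Feature Extraction's ratio (1.11) and with a normexp offset of 10 (1.02). Erythroid markers moved the same way: 4 of 4 measured were higher, with a median of 3.13, and their part in the Slc25a37 ratio was not tested. Slc25a28, or mitoferrin 2, had signals that overlapped and was at 0.20 ± 0.22, so the mitoferrins differed by 0.74 ± 0.09 (its ratio was −0.08 with median centring). Slc25a38, which brings in glycine for heme, was at 0.64 ± 0.17. The glutathione carriers Slc25a39 and Slc25a40, at 0.74 ± 0.06 and 0.83 ± 0.10, differed by 0.09 ± 0.16, which is within the distance between arrays. Slc25a40 met the rule as higher by Feature Extraction's ratio (1.38), with a normexp offset of 10 (1.14) and without background correction (1.00).

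Of 8 measured uncoupling-like or other carriers, none met the rule, 5 were above 0 on both arrays and 3 below, with a median of 0.28. Slc25a35 had the largest ratio, with signals of 267 and 227 in adenine alone and 158 and 133 with HMPA. Here the HMPA signals were the lower ones without overlap, at −0.76 ± 0.0038. Slc25a35 met the rule as lower with median centring (−1.09), and the mean over its probes was −0.27. Slc25a27, or UCP4, was at −0.13 ± 0.09. Slc25a30, known as kidney mitochondrial carrier 1, was at 0.23 ± 0.20 (−0.04 with median centring). Slc25a14, Slc25a45, Slc25a46 and Slc25a48 were between 0.34 and 0.49, and Slc25a48 met the rule at 1.04 by Feature Extraction's ratio.

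**Figure D3:**
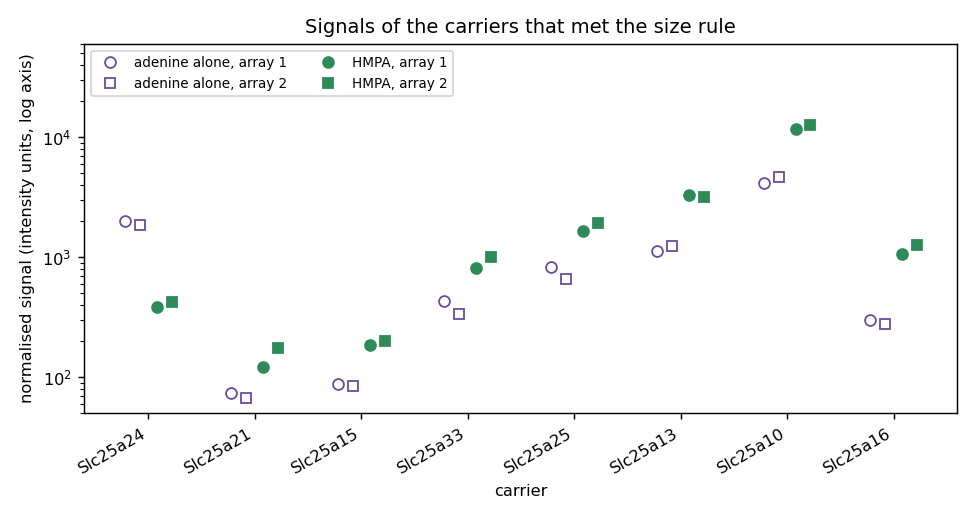
Normalised signal (log axis) of the 8 carriers that met the rule, with open symbols for adenine alone, filled symbols for HMPA, circles for array 1 and squares for array 2. The HMPA signals lie above those of adenine alone for 7 carriers and below for Slc25a24; heights of different carriers come from different probes and are not comparable.

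A carrier was represented by its brightest kept probe, and 16 carriers had more than 1. Over all kept probes of the family, 9 of 58 met the rule as higher and 1 as lower, against 5.87% and 6.06% of all kept probes. Probes of Slc25a35 and Slc25a29 differed in sign, at −0.76 and 0.21, and at 0.32 and −0.02 (Slc25a29, a carrier of basic amino acids, was at −0.0008 with median centring). The second Slc25a29 probe was dim, with signals of 66.1 to 70.2, and gave −0.06 on array 1 and 0.01 on array 2. By Feature Extraction's ratio both Slc25a29 probes were above 0 (0.52 and 0.08), while those of Slc25a35 still differed in sign (−0.97 and 0.64). The call differed between probes of Slc25a17, Slc25a24, Slc25a25 and Slc25a33. In Slc25a17, another probe reached 1.02 ± 0.12 and met the rule, beside 0.96 and the reported 0.86.

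The sequences of a further probe of each of the other 3 are shown, since with the background offset of 50 the size of their ratios rests on which probe is read. The Slc25a24 probe lies at chr3:108964218-108964277 (+ strand), the Slc25a25 probe spans chr2:32272932-32273261 (− strand) across a junction, its genomic span being longer than the probe, and the Slc25a33 probe spans chr4:149123432-149126565 (− strand) across another (mm9). No bases are marked.
Slc25a24 probe: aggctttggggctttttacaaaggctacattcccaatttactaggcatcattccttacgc
Slc25a25 probe: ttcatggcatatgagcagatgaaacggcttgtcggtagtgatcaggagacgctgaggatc
Slc25a33 probe: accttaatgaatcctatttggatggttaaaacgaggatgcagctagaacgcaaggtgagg
The printed Slc25a24 probe was not well above background with HMPA, so it gives only a bound: at least 1.36-fold lower with HMPA, where the reported probe gave 4.77-fold. With the mean over both, Slc25a24 was at −1.35. The printed Slc25a25 probe was at 0.33 ± 0.05, with signals of 65.8 and 67.9 in adenine alone and 79.4 and 88.3 with HMPA, while the third probe of this gene was at 1.30 ± 0.31. The printed Slc25a33 probe was at 0.99 ± 0.02, a little under the rule. By Feature Extraction's own ratios, which do not use that offset, the probes of each gene lay on the same side of the 2-fold line. They were −2.86 and −2.37 for Slc25a24, 1.45, 1.57 and 1.36 for Slc25a25, and 2.02 and 1.41 for Slc25a33, the printed probe first. A dim Slc25a40 probe, not well above background in adenine alone, gave at least 1.17-fold higher with HMPA.

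**Figure D4:**
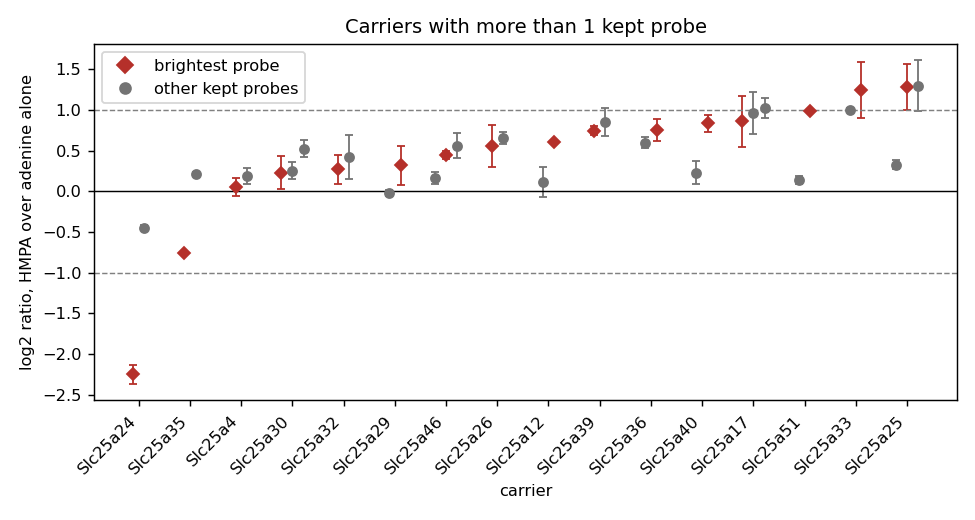
Log2 ratio of HMPA over adenine alone for every kept probe of the 16 carriers with more than 1, with red diamonds for the brightest probe and grey circles for the others. Bars show the distance of each array from the mean and dashed lines a 2-fold difference; the probes of Slc25a24 lie at −2.25 and −0.45.

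Promoters were read for 34 of the 45 carriers in the RefSeq table (GRCm38.p6), as the 250 bases before each listed start. Some carriers had 2 or 3 starts, and so more than 1 window. The windows of Slc25a13 and Slc25a33, among the higher carriers, and of Slc25a24, the lower one, are shown to compare carriers that differed in direction. They lie at chr6:6217174-6217423 (− strand), chr4:149774268-149774517 (− strand) and chr3:109122899-109123148 (+ strand). Capitals mark the motifs CCAAT and GGGCGG on either strand.
Slc25a13 promoter: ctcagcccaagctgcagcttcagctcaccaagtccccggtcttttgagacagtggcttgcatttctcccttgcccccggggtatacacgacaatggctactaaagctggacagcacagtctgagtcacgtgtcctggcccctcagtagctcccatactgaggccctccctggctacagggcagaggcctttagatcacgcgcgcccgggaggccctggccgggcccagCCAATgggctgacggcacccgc
Slc25a33 promoter: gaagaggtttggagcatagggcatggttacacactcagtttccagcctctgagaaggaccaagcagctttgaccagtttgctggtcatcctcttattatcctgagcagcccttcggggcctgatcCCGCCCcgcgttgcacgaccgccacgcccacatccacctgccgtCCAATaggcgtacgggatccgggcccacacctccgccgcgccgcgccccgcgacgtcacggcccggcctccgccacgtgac
Slc25a24 promoter: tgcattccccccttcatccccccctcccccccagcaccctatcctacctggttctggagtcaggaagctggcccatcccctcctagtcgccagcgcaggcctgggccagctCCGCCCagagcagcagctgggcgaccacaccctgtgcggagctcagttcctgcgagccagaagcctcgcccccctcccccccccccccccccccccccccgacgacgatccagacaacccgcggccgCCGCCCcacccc
A gene counted as holding a motif if any of its windows did. The CCAAT box was found for 17 of the 34 carriers and for 37.5% of all 27025 genes in the table. The GC box, GGGCGG, was found for 23 of 34 carriers and 35.4% of genes. Of the 7 carriers that met the rule as higher, 4 held CCAAT and 3 held GGGCGG, against 13 and 20 of the other 27. Those 27 include Slc25a18, Slc25a31, Slc25a34, Slc25a47 and Slc25a54, which were not measured and so have no ratio. The motif of the respiratory factor NRF1 was found for 2 of 34 carriers and 4.23% of all genes. TNAAGGTCA, of the estrogen-related receptors, was found for 0 of 34 and 1.30%. Both strands were searched, and no motif contains another. These matches describe letters only.

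Other genes of mitochondrial transport, and enzymes that make or use the carried solutes, were read in 4 lists. Their counts stand beside 6.64% higher and 7.72% lower among all measured genes. Among carriers of the same fold under other names, 0 of 4 measured met the rule, with a median of −0.50. Mtch1, an outer membrane member, was at −0.77 ± 0.15 and Mtch2, which inserts proteins there, at 0.68 ± 0.11. Of 24 other transport proteins of the mitochondrial membranes, 5 met the rule as higher and 1 as lower, and the median was 0.31. Mpc1, a subunit of the pyruvate carrier, was at 1.38 ± 0.14, the serine carrier Sfxn1 at 1.26 ± 0.04, Mcur1, a regulator of calcium uptake, at 1.17 ± 0.04, and Ghitm at 1.13 ± 0.02. Sfxn3, related to Sfxn1, was at −1.56 ± 0.30. Of 16 genes for import of carrier proteins, 1 was higher, the chaperone Timm9 (1.15 ± 0.13), with a median of 0.33. This count is near the share of all genes.

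Enzymes that make or use the carried solutes had the highest median of the 4 lists, 0.98, with 12 of 24 higher and 1 lower. Gatm, which makes the creatine precursor, was at 2.59 ± 0.07, and Ass1, which joins citrulline and aspartate, at 2.36 ± 0.30. Pcx, which makes oxaloacetate from pyruvate, was at 2.09 ± 0.21. Arg2, the mitochondrial arginase that yields ornithine, was lower at −1.16 ± 0.11.

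**Figure D5:**
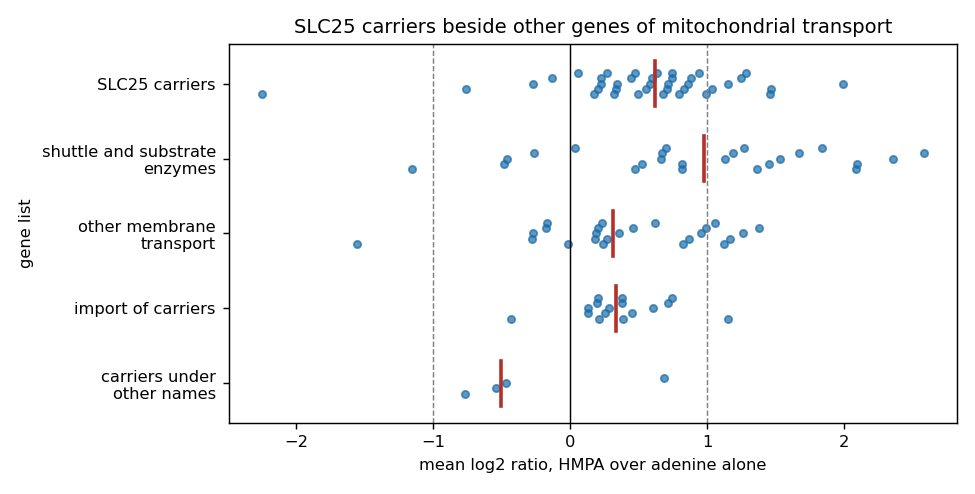
Mean log2 ratio of HMPA over adenine alone for each measured gene of the SLC25 family and of 4 other lists. These hold other genes of mitochondrial transport and, in 1 list, enzymes that make or use the carried solutes. Red bars are medians and dashed lines mark a 2-fold difference. The medians run from 0.98 for the enzymes to −0.50 for the carriers under other names.

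Markers of several kidney cell types differed between the samples. For comparison, 6.64% of all measured genes met the rule as higher and 7.72% as lower. All 12 proximal tubule markers were measured and 11 were higher with HMPA, with a median of 2.41. Their summed signal was 38680 and 55661 in adenine alone and 275094 and 264393 with HMPA. Collecting duct markers were higher in 5 of 6 (median 2.08, summed signal 2954 to 3128 in adenine alone and 13820 to 14173 with HMPA), and 3 of 8 of the loop and distal tubule (0.70, 42356 to 47417 and 58475 to 63762). The erythroid sum was 2958 to 4560 and 60811 to 67185; Slc4a1 is in this list and that of the collecting duct. Fibroblast markers were lower in 5 of 6 (median −1.83, 61783 to 69381 and 11060 to 12360) and leukocyte markers in 7 of 8 (−1.63, 65547 to 66672 and 9396 to 10828). Adipocyte markers were lower in 3 of 5 (−1.20, 17505 to 18811 and 4245 to 6035), as was 1 of 5 podocyte markers (−0.09, 1359 to 1400 and 910 to 936). None of 6 endothelial markers met the rule (−0.10, 9050 to 9187 and 7473 to 7561), nor did either of the muscle markers measured (−0.38, 219 to 230 and 156 to 162). In bulk kidney RNA, fewer cells of a type and less RNA per cell cannot be told apart. The part of cell makeup in the carrier ratios was not tested.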

How the data were processed

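Kidney RNA of the 2 conditions was hybridised together on 2 arrays with swapped dyes. Per the file headers, the authors quantified spots with Agilent Feature Extraction 12.2.0.7; the submitters' processing notes name version 9.5. The deposited intensity columns hold each spot's mean signal and median local background, not normalised. The deposited log10 ratio of red over green is Feature Extraction's own, and the value table equals it within 0.00499. Control spots (1639 of 45018) were left out, and 281 and 297 flagged gene spots were given weight 0. limma 3.58.1 in R 4.3.3 corrected background (normexp, offset 50) and normalised by loess within arrays, with quantile scaling of average signals for levels in each channel; Python 3.11.15 did the rest. Probes were kept where at least 1 condition was well above background on array 1 and on array 2 (25138 of 41174), and the brightest kept probe stood for a gene. The labels do not name separate extracts, so the arrays count as 1 replicate. "At least" folds set a probe dim in a condition at the higher of its own signal and the background floor. Exon or UTR was not assigned, as no mm9 annotation was used here.

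The members and lists were chosen with earlier results of these data known. Values on each array were given for carriers that met the size rule, for the largest ratio of a class without any, and for carriers whose probes disagreed or were dim in 1 condition; from other lists, up to 4 per direction were named. Single genes that these rules name are not all reported here. Related pairs were chosen from background on the family, likewise with earlier results known, and each was set with the higher carrier first. Not every possible pair was compared, and Slc25a23 with Slc25a24 was left out. On simulated data of 43379 probes, the rule called 0 unchanged probes and found 7.46% of probes changed 2-fold, 50.7% changed 4-fold and 47.0% changed 8-fold. Of bright ones it found 17.2%, 97.1% and 100%. A planted log2 difference of 2 came out as 1.66 in bright probes, a compression of ratios. The simulation changed few probes, in random directions, with independent noise per channel and no spread between animals. It cannot show false calls from scaling where many genes differ, or from having 1 RNA sample per condition. Its 0 is therefore not a rate of false calls for these data. Alternatives covered background, scaling, starting values, filter, probe choice, size rule and each array alone.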

Additional observations from a re-analysis of the deposited data

How the results depend on the processing

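Slc25a10, Slc25a13 and Slc25a16 met the rule as higher, and Slc25a24 as lower, in all 11 settings run. The count of 7 higher carriers became 11 with a normexp offset of 10, 3 with median centring, 14 from the ratios of Feature Extraction and 20 under the 1.5-fold rule, and from 6 (array 1 alone) to 10 (array 2 alone) with 1 array left out. Lower carriers numbered 2 under the centring, Feature Extraction and 1.5-fold alternatives alike. The carriers' median was 0.35 when centred on the median, 0.86 from Feature Extraction's ratios, and 0.49 to 0.67 with 1 array. Of all genes, 2043 were higher and 2461 lower from Feature Extraction's ratios, 2317 and 2771 under the 1.5-fold rule, and 1973 lower with median centring. The 18 higher genes of the 4 other lists, 12 of them in the list of enzymes, became 32 with the rule at 1.5-fold. Among all genes, the share called higher went from 6.64% to 13.9% between these rules. The cause was not tested, except that the 1.5-fold rule admits smaller ratios.

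Direction turned with median centring for Slc25a28 (−0.0769), Slc25a29 (−0.0008), Slc25a30 (−0.037) and Slc25a32 (−0.0461), and on a single array for Slc25a4 (−0.0573 on array 2, 0.1653 on array 1) and Slc25a28 (−0.0196 on array 1, 0.4227 on array 2). No paired analysis was possible because there was 1 RNA sample per condition: each ratio already sets HMPA against adenine alone within an array, and no test was made. Signal over background limits the dim carriers, where the offset of 50 draws ratios toward 0, and 7 carriers at background gave no ratio. The spread between animals is unknown.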
